A study of Mus musculus with 2 samples.

Results

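The cytosolic ribosomal protein genes and their paralogs were described in a pair of primary mouse cell types, embryonic fibroblasts (MEF) and bone marrow derived macrophages (BMDM). The genes were taken by name and description, by a rule that uses no measured value. Earlier results of these data were known when the members were chosen. A row was kept where its symbol opened with Rpl, Rps or Rplp followed by a digit and its description opened with the words "ribosomal protein", unless the description named a pseudogene or a kinase. Of 34456 rows, standing for 34295 genes, 369 had a matching symbol. Among these, 265 were described as pseudogenes, 11 as kinases and 1 did not open with those words as spelled, which left 92 genes. They comprised 76 core genes, 46 for the large and 30 for the small subunit, 11 paralogs of a core gene, and 5 other rows. The 5 others were the retrotransposed copies Rpl37rt, Rpl6l, Rps12l1 and Rpl21-ps13, and Rps19bp1, which encodes a partner of the ribosomal protein RPS19 and no ribosomal protein. All 92 were found in the GENCODE M21 annotation of the build GRCm38, on 19 chromosomes, and 16 of them lay on chromosome 7. That annotation gave 85 of the 92 as protein coding. Among the paralogs, it gave Rps4l, Rps3a2 and Rps3a3 as pseudogenes.

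The study surveyed growth factors and their receptors in wild-type C57BL/6J cells, with 1 library of each cell type. Fibroblasts were grown out of E13.5-E14.4 embryos (days after mating) without head and red organs, cleared by sorting of cells bearing CD45, CD11b or F4/80, and used at passage 4 to 7 in DMEM with 10% serum. Macrophages were grown for 6 days from bone marrow in RPMI with 10% serum and 30% medium conditioned by L929 cells, and replated for another night. The libraries came from 100000 fibroblasts and 750000 macrophages. Values are transcripts per 1000000 transcripts (TPM), a level per transcript length that can be compared between genes. With no replicate, there is neither an error nor a test, and the depth behind TPM is unknown. Cell type cannot be told apart from medium, cell number and preparation, and a difference in a cell's total RNA does not show in TPM. Likewise, fewer cells of a type and less RNA per cell cannot be told apart.

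A cytosolic ribosome holds a single copy of nearly every one of its proteins, apart from the acidic stalk proteins, so their synthesis has to be matched. Their mRNAs share a start rich in pyrimidines, the 5′ terminal oligopyrimidine (TOP) tract, through which the kinase mTOR controls their translation together. The genes are also known as prolific parents of processed pseudogenes, which are mRNA copies pasted back into the genome without introns.

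The libraries carried the markers of their labels. The 12 fibroblast markers summed to 15132 TPM in MEF and 31.8 TPM in BMDM, and the 12 macrophage markers to 39.3 TPM in MEF and 25772 TPM in BMDM, with all 24 past the size rule given later. Of 7 neutrophil markers, 4 were higher in macrophages, at a sum of 1.93 TPM in MEF and 447 TPM in BMDM, and 2 of 7 muscle markers were higher in fibroblasts, at 13.1 TPM against 0.898 TPM in macrophages. Erythroid, endothelial, epithelial, lymphocyte and germ cell markers summed to at most 8.38 TPM each in either library.

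The sequence of a ribosomal protein gene bears on its value, because short reads of an intronless copy look like reads of the gene. The first 60 coding bases of Rpl5 (chr5:107900502-107909005, plus strand) and the matching bases of Gm15500 (chr7:114705217-114706235, minus strand), annotated as a transcribed processed pseudogene, are shown because, of the abundant copies described later, Gm15500 held the largest share of the pair with its gene. They come from the spliced GENCODE M21 transcripts, read 5′ to 3′, and have no differing base, here or over the other coding bases of Rpl5.
Rpl5: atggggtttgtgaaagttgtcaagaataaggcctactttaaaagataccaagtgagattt
Gm15500: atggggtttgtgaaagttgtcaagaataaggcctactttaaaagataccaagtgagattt
The second pair is coding bases 265 to 324 of Rps20 (chr4:3831334-3835665, minus strand) and the same stretch of its copy Gm4332 (chr3:119709516-119709861, plus strand), shown because Rps20 had the highest ratio of the 76 core genes once copies were added. The capital marks the only base that differs in the aligned part.
Rps20: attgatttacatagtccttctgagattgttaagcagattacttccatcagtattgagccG
Gm4332: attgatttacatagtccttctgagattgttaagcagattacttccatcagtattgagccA

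The mRNA starts of 4 core genes show the tract that the family shares. Each line gives 15 bases before and 15 bases from the start that RefSeq places on GRCm38.p6, with the TOP tract in capitals. A TOP start was counted where the first transcribed base was C and at least the next 4 were C or T. Rps6 encodes the protein that S6 kinase phosphorylates, Rpl35 a protein beside the exit tunnel, Rps10 a protein of the small subunit's head and Rpl15 a large subunit protein. Their windows lie at chr4:86857353-86857382, chr2:39005117-39005146, chr17:27635230-27635259 and chr14:18270972-18271001, each on the minus strand.
Rps6: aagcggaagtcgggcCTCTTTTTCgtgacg
Rpl35: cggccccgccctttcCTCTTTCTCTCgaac
Rps10: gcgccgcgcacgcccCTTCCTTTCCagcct
Rpl15: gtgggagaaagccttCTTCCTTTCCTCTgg
RefSeq windows reaching from 250 bases before to 50 bases after a start were at hand for 66 of the 92 genes. Among the 66 windows of 56 core genes, 13 had a TOP start at the annotated base (19.7%), against 2.51% of all 32851 windows and 0 of 75 windows of mitochondrial ribosomal protein genes. Other annotated starts can lie some bases off the tract, so the share depends on the annotation. The ETS type motif CCGGAAG, searched on both strands, stood in 36.4% of core windows, 34.7% of mitochondrial ribosomal protein windows and 8.86% of all windows. AAGATGG, a YY1 type motif, stood in 16.7%, 17.3% and 6.34% of these, and GGGCGG, a GC box, in 60.6%, 52% and 35.7%. The TATA box letters TATAAA stood in 9.09% of core windows, 6.67% of mitochondrial ribosomal protein windows and 13.6% of all windows. A match describes letters only, and neighbouring matches of these motifs can overlap.

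The 92 genes summed to 124718 TPM in MEF and 86609 TPM in BMDM. That was 12.5% of the fibroblast library and 8.66% of the macrophage library, a ratio of sums of 1.44. Large subunit genes held 58.5% of this sum in fibroblasts and 56.8% in macrophages. Other abundant transcripts differed as well. The 10 highest genes of each library held 6.47% of the TPM in fibroblasts and 12.5% in macrophages, where Fth1, encoding ferritin heavy chain, alone stood at 26253 TPM, and genes of the mitochondrial genome held 4.83% in MEF and 2.97% in BMDM. Without mitochondrial genome genes and each library's 50 highest, the members' share was 10.6% in fibroblasts and 8.39% in macrophages. This rescaling also dropped 13 members. The part of the other abundant transcripts alone in the difference was not tested.

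All 76 core genes reached 5 TPM in both libraries. Their median level was 1443 TPM in MEF and 1066 TPM in BMDM. The highest by the mean of both libraries was Rplp1, a stalk protein gene, at 6846 TPM in MEF and 3639 TPM in BMDM. Rpl41, which encodes the shortest ribosomal protein, followed with 4643 TPM in MEF and 2942 TPM in BMDM. The small subunit genes Rps29, Rps24 and Rps2 completed the first 5, at 2685, 3013 and 3175 TPM in MEF and 2844, 2361 and 1794 TPM in BMDM. Together the 5 held 16.3% of the members' TPM in fibroblasts and 15.7% in macrophages.

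At the other end stood Rpl5, at 38.5 TPM in MEF and 21.8 TPM in BMDM. Rpl12 was listed at 69.0 TPM in MEF and 57.9 TPM in BMDM, and Rpl27 at 138 TPM in MEF and 68.2 TPM in BMDM. Rps12 followed at 262 TPM in MEF and 93.3 TPM in BMDM, and Rpl37 at 363 TPM in MEF and 264 TPM in BMDM. As listed, the highest core gene thus stood 178-fold above the lowest in fibroblasts and 167-fold in macrophages.

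All 5 of these low genes had near-identical copies elsewhere in the table. A copy was counted where 1 alignment of its GENCODE M21 transcript matched at least 95% of the gene's coding bases. Outside the 92 genes, 406 such copies of 74 members stood in the table. Only 26 of them reached 100 TPM in either library and 36 reached 5 TPM, while 132 were listed at 0 in both. Together the copies summed to 29593 TPM in MEF and 21740 TPM in BMDM, or 2.96% of the MEF and 2.17% of the BMDM library. With them the members' share came to 15.4% in fibroblasts and 10.8% in macrophages. Of the 26 abundant copies, 15 were identical to the gene over all coding bases and 19 had no mismatch in the aligned part. Of the words of 31 bases in a gene's coding sequence, between 84.9% and 100% also stood in its copy, with a median of 100%. By annotation 23 were pseudogenes, and Rpl10-ps3, Gm2000 and Rps12-ps3 were protein coding.

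Copies outside the members exceeded the gene's own row in both libraries for 13 core genes. Gm15500, the copy of Rpl5 printed earlier, was listed at 1390 TPM in MEF and 1081 TPM in BMDM, or 97.3% of the pair in MEF and 98.0% in BMDM. Gm10275, on chromosome 10, held 2146 TPM in MEF and 1404 TPM in BMDM beside Rpl12, the protein at the base of the stalk. Rps12-ps3, on chromosome 19, held 2869 TPM in MEF and 2290 TPM in BMDM beside Rps12. All 3 genes were among the 5 lowest by their own row. With copies Rps12 came to 3135 TPM in MEF and 2386 TPM in BMDM, Rpl12 to 2220 TPM in MEF and 1491 TPM in BMDM, and Rpl5 to 1429 TPM in MEF and 1103 TPM in BMDM, against core medians with copies of 1753 TPM in MEF and 1205 TPM in BMDM.

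Further large splits concerned Rpl27a, at 493 TPM in MEF and 323 TPM in BMDM, whose copy Gm7536 stood at 3091 TPM in MEF and 2033 TPM in BMDM. Rps23, a protein of the decoding center, was at 557 TPM in MEF and 497 TPM in BMDM, and its copy Rps23-ps1 at 1658 TPM in MEF and 1294 TPM in BMDM. Among the members themselves, the retrotransposed copy Rpl37rt was listed at 1279 TPM in MEF and 853 TPM in BMDM, above its parent Rpl37. Whether the reads came from the gene or from the copy cannot be told apart where the bases are identical.

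**Figure D1:**
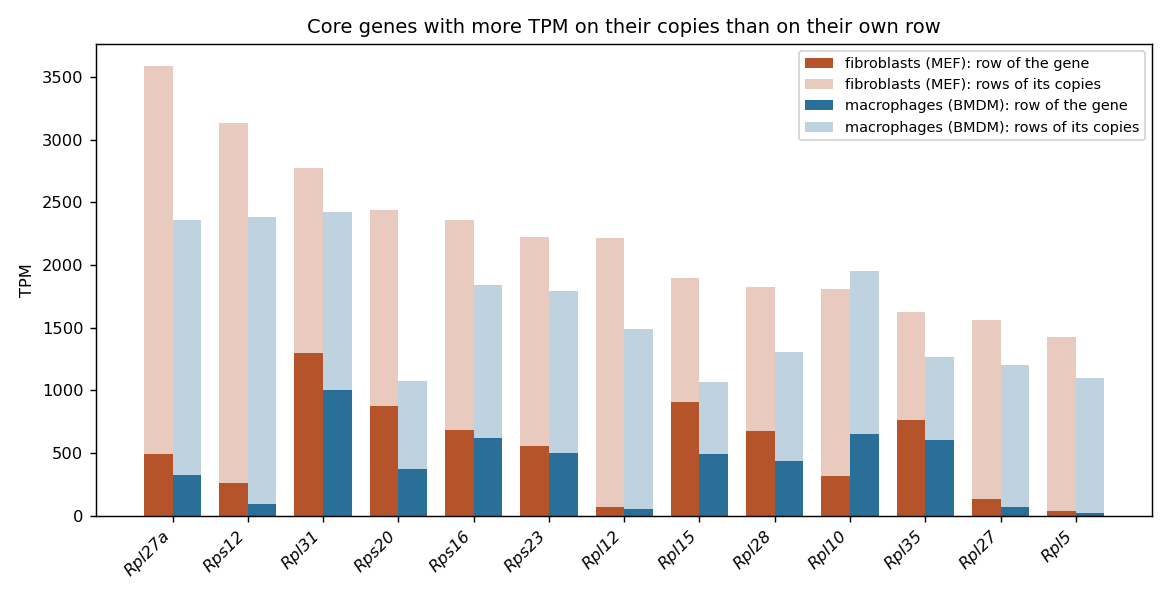
Stacked bars give the TPM (vertical axis, from 0) of the 13 core genes whose copies outside the members held over 50% of the sum in both libraries, fibroblasts left and macrophages right for each gene. The dark part is the gene's own row and the pale part the rows of its copies, so that Rpl5 shows almost no dark part while its bars reach 1429 TPM in MEF and 1103 TPM in BMDM.

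With copies added to their parent, the lowest core gene was Rpl22 in fibroblasts, at 907 TPM, and Rpl14 in macrophages, at 675 TPM. The range from lowest to highest then spanned 7.55-fold in fibroblasts and 5.40-fold in macrophages. The spread between genes, as the SD of log2 TPM over the 76, was 0.52 in each library with copies, against 1.17 in fibroblasts and 1.21 in macrophages as listed. The median level with copies was 1753 TPM in MEF and 1205 TPM in BMDM. Across the 76 genes, which share their libraries and are not independent replicates, Spearman's rho between the levels in the libraries was 0.95 as listed and 0.87 with copies.

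**Figure D2:**
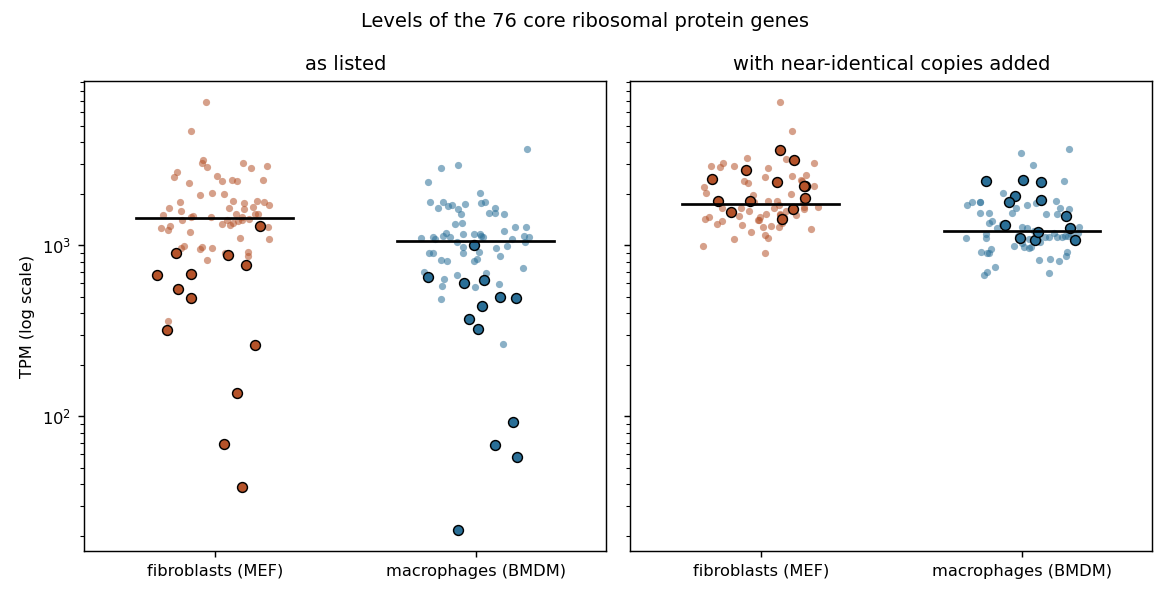
Each point is 1 of the 76 core genes in the fibroblast library (left) or the macrophage library (right), by its TPM on a log axis, and the black line is the median. Outlined points are the 13 genes whose copies outside the members held over 50% of the sum in both libraries. As listed they form most of the lower tail down to 38.5 TPM in MEF and 21.8 TPM in BMDM, and with copies added (right panel) they lie among the other genes.

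The ratio between the libraries was given as the log2 of TPM plus 1 in fibroblasts over TPM plus 1 in macrophages, so that a positive value is higher in fibroblasts. A gene was called higher in 1 library where the ratio was at least 4-fold and the level there at least 5 TPM. By this size rule 2 of the 85 members at 5 TPM or more were higher in fibroblasts, Rps4l and Rpl22l1, against 14.3% of the 11191 genes at that level. None of the 85 was higher in macrophages, against 8.77% of all genes. At 2-fold the counts were 8 members toward fibroblasts, against 23.6% of all genes, and 1 toward macrophages, against 15.2%. A log2 ratio above 0 was seen in 81 of the 85, against 61.5% of all genes.

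The core genes lay close together. Their median log2 ratio was 0.52, with an SD between genes of 0.32 and quartiles at 0.37 and 0.64, and 71 of the 76 lay within 0.5 of the median. For the 949 genes outside the members at 100 TPM or more in both libraries, the median was 0.16, the SD 0.85 and the quartiles −0.26 and 0.51. Over the 85 members the median was 0.53, and over all 11191 genes at 5 TPM it was 0.26 with an SD of 2.17. Of the core genes, 73 stood above 0, and Rpl10, Rpl32 and Rps29 below it. Under scaling by the median of ratios, which moved the log2 ratios down by 0.25, 67 of 76 stood above 0, and Rpl12, Rpl35a, Rps16, Rps23, Rps25 and Rps27a joined those below. The core median stood 0.27 above that of all genes under this scaling and 0.26 above it as deposited.

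The outer values of the core range belonged to genes with abundant copies. Rpl10, an X-linked gene whose protein is among the last to join the large subunit, was at 320 TPM in MEF and 655 TPM in BMDM, the only core gene more than 2-fold higher in macrophages, with a log2 ratio of −1.03. Its copy Rpl10-ps3, on chromosome 9 and identical over the coding bases, was at 1488 TPM in MEF and 1292 TPM in BMDM. Their sum with lesser copies gave −0.11. Rps12 had the highest core ratio, 1.48, and 0.39 with copies. Rpl27 had 1.00, and 0.38 with its copy Rpl27-ps3 at 1422 TPM in MEF and 1113 TPM in BMDM. The next values leave out the 13 genes that stood below their copies outside the members, and keep Rpl37. Over these 63 genes the core ratios ran from −0.08 to 1.02 with an SD of 0.22.

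**Figure D3:**
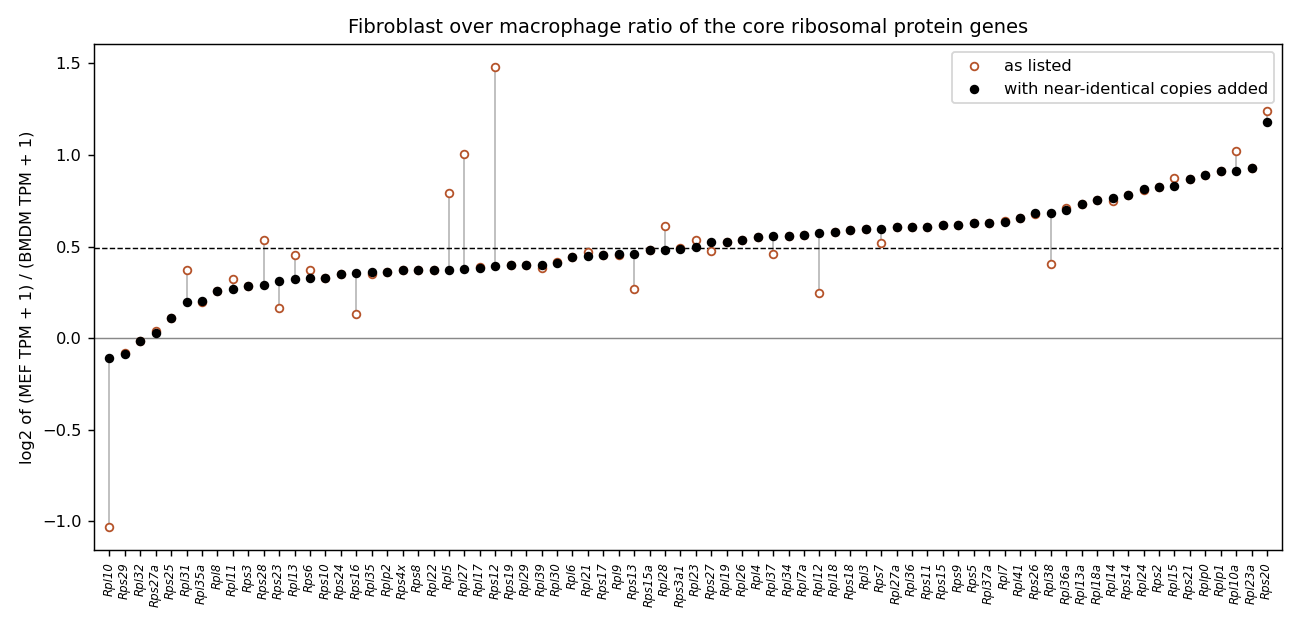
The log2 ratio of fibroblasts over macrophages (vertical axis, TPM plus 1) of the 76 core genes, ordered by the value with copies. Open circles are the values as listed, filled circles those with near-identical copies added, and the dashed line is the median of the filled circles, 0.49. Rpl10, Rpl5, Rpl27 and Rps12 are joined by the longest lines, and all filled circles lie between −0.11 and 1.18.

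Rps20, which lines the mRNA path on the small subunit's head, kept its place at the upper end. It was listed at 879 TPM in MEF and 372 TPM in BMDM, and its copy Gm4332 at 1559 TPM in MEF and 702 TPM in BMDM. The log2 ratio was 1.24 as listed and 1.18 with the copy. Rpl10a, the protein of the mobile stalk beside the exit site, was at 986 TPM in MEF and 486 TPM in BMDM, with a log2 ratio of 1.02 and, with Rpl10a-ps1, of 0.91. At the lower end Rps29 was at 2685 TPM in MEF and 2844 TPM in BMDM, and Rpl32 at 1994 TPM in MEF and 2015 TPM in BMDM, so that both libraries held nearly the same level. Rps27a, which is made as a fusion with ubiquitin, stood at 1587 TPM in MEF and 1547 TPM in BMDM, and Rps25 at 1776 TPM in MEF and 1647 TPM in BMDM. Rps16 was at 683 TPM in MEF and 623 TPM in BMDM. Rps16 and Rps23 had log2 ratios of 0.13 and 0.16 as listed, and 0.36 and 0.31 with copies.

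Of the 36 copies at 5 TPM or more, 2 were higher in fibroblasts by the size rule, Rpl38-ps2 and Gm15148. Toward macrophages there were 3, Gm11425, Gm11518 and Gm8430. Over all 11191 genes at that level, 14.3% were higher in fibroblasts and 8.77% in macrophages. The counts of copies were no higher than these shares. Gm11518, a copy of Rpl27, was listed at 0.0017 TPM in MEF and 19.8 TPM in BMDM, and Gm11425, a copy of Rpl12, at 0.609 TPM in MEF and 26.6 TPM in BMDM. Gm15148, a copy of Rpl39, was at 7.16 TPM in MEF and listed at 0 in BMDM, and Gm8430, a copy of Rps27a, was listed at 0 in MEF and 6.37 TPM in BMDM. Only Rpl38-ps2 among these 5 reached 100 TPM. Rpl38, a protein known in mice for its role in the translation of Hox mRNAs, was at 1793 TPM in MEF and 1354 TPM in BMDM, a log2 ratio of 0.41. Its copy Rpl38-ps2, identical over the coding bases, was at 426 TPM in MEF and 24.8 TPM in BMDM, a log2 ratio of 4.05 and the largest among the 26 abundant copies. With it, Rpl38 came to 0.69.

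By role, the stalk that recruits elongation factors gave unequal values. Its anchor Rplp0 was at 2838 TPM in MEF and 1530 TPM in BMDM, a log2 ratio of 0.89. Rplp1 had a log2 ratio of 0.91, and its partner Rplp2 had 0.36, at 1640 TPM in MEF and 1276 TPM in BMDM. Rplp1 thus stood above Rplp2 in both libraries, though their proteins form dimers. Rpl12 had 0.25 as listed and 0.57 with its copies.

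Rpl5 and Rpl11 encode the proteins that carry the 5S rRNA and, when free, bind MDM2 and so stabilise p53. With copies Rpl5 stood at 1429 TPM in MEF and 1103 TPM in BMDM, and Rpl11 at 1511 TPM in MEF and 1256 TPM in BMDM. These levels were near one another, whereas the listed rows held 38.5 TPM and 1421 TPM in fibroblasts. Their log2 ratios with copies were 0.37 and 0.27. The 6 genes of the p53 arm had a median log2 ratio of 0.28, and none of the 6 passed the size rule. Over all 11191 genes at 5 TPM or more, 14.3% passed it toward fibroblasts and 8.77% toward macrophages.

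Other sites on the ribosome gave medians near the core's, here as listed unless copies are named. The 9 proteins around the exit tunnel had a median log2 ratio of 0.39, from 0.35 for Rpl35 to 0.93 for Rpl23a. The 8 along the mRNA path had 0.58, from 0.16 for Rps23 to 1.24 for Rps20. The 32 proteins shared with bacteria and archaea had 0.57 and the other 44 had 0.47. The 46 large subunit genes had 0.55 and the 30 small subunit genes 0.48. The 4 X-linked genes Rpl10, Rpl36a, Rpl39 and Rps4x had 0.38 as listed and 0.39 with copies. A list of 19 genes linked in humans to Diamond-Blackfan anemia, a failure of red cell formation, had 0.47. The 57 core genes outside this list, which need not be complete, had 0.55. With copies outside the members added, these 2 medians were 0.38 and 0.55. On the same basis the tunnel and mRNA path lists had 0.40 and 0.55. The shared and the other proteins then had 0.56 and 0.45, and the large and small subunit 0.53 and 0.46. No member of these lists passed the size rule, against 14.3% of all genes toward fibroblasts and 8.77% toward macrophages. Across the 76 core genes, whose coding lengths ran from 78 bases for Rpl41 to 1260 bases for Rpl4, Spearman's rho of the ratio with copies was 0.05 against coding length and 0.18 against GC content. The 13 genes with a TOP start had a median log2 ratio of 0.47, and the 43 core genes with a window but no such start 0.53.

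The paralogs showed the widest ratios among the members. Of the 11, 7 reached 5 TPM, and their log2 ratios ran from −0.19 to 3.99 with a median of 1.74. That median is the value of Rps27rt, a retrogene whose coding bases are all identical to those of Rps27. The pairs are shown over 60 coding bases that include the differences which let reads be assigned, with each base that differs between the gene and its paralog in capitals. The first is Rpl22 (chr4:152325742-152334071, plus strand) and Rpl22l1 (chr3:28805436-28807424, plus strand), over coding bases 176 to 235 of Rpl22, where 23 differ.
Rpl22: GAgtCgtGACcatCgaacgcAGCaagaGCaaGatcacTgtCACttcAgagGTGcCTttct
Rpl22l1: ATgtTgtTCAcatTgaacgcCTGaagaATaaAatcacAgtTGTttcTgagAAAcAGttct
The next is Rps4x (chrX:102184941-102189394, minus strand) and Rps4l (chr6:148354656-148355598, plus strand), over coding bases 475 to 534 of Rps4x, where 20 differ.
Rps4x: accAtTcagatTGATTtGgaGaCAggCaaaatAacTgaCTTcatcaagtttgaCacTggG
Rps4l: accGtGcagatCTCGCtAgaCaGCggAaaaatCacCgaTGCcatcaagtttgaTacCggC
The last set is Rps27 (chr3:90212522-90213651, minus strand), Rps27l (chr9:66946086-66949516, plus strand) and the retrogene Rps27rt (chr9:114982366-114982739, minus strand), over coding bases 184 to 243 of Rps27. Rps27l has 14 bases here that differ from Rps27, and Rps27rt has 0. In this set the capitals mark those 14 positions on every line. Rps27rt thus holds no base here that sets its reads apart from those of Rps27.
Rps27: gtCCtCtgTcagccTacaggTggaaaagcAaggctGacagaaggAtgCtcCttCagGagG
Rps27l: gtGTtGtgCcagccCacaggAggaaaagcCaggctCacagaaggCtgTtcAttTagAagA
Rps27rt: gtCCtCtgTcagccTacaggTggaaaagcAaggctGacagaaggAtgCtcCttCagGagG

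Rpl22l1, which in mice is held down by the RPL22 protein, stood at 458 TPM in MEF and 86.7 TPM in BMDM, a log2 ratio of 2.39. Rpl22 itself was at 907 TPM in MEF and 700.2 TPM in BMDM, a log2 ratio of 0.37. The paralog thus held 33.6% of the pair in fibroblasts and 11.0% in macrophages. Over the 294 aligned coding bases the pair was 75.9% identical.

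Rps4l, annotated as a transcribed processed pseudogene, was at 114 TPM in MEF and 6.23 TPM in BMDM, 18.3-fold apart in TPM alone. Its log2 ratio of TPM plus 1 was 3.99, the largest of any member. Its parent Rps4x was at 1399 TPM in MEF and 1082 TPM in BMDM. The paralog held 7.52% of the pair in fibroblasts and 0.572% in macrophages, and 80.5% of its aligned coding bases matched Rps4x.

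Rpl39l, known from the testis, was at 11.1 TPM in MEF and 2.06 TPM in BMDM, 5.36-fold apart in TPM alone. By TPM plus 1 it lay just under 4-fold, with a log2 ratio of 1.98. Rps27rt had a log2 ratio of 1.74, at 147 TPM in MEF and 43.3 TPM in BMDM, and its coding bases cannot be told apart from those of Rps27. Rps27 stood at 2422 TPM in MEF and 1743 TPM in BMDM.

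The remaining 3 expressed paralogs stayed within 2-fold. Rps27l, a p53 target, was at 837 TPM in MEF and 481 TPM in BMDM, or 25.7% of the pair with Rps27 in MEF and 21.6% in BMDM, and 79.2% identical to it over 250 aligned coding bases. Rpl36al was at 672 TPM in MEF and 593 TPM in BMDM, and held 41.5% of the pair with Rpl36a in fibroblasts and 50.6% in macrophages. With the near-identical copies of Rpl36a added to their parent, its share was 27.3% in fibroblasts and 35.0% in macrophages. Rpl7l1, whose protein acts in large subunit assembly, was the only paralog lower in fibroblasts among those at 5 TPM, at 70.5 TPM there and 80.8 TPM in macrophages. The muscle paralog Rpl3l was listed at 0 in fibroblasts and 0.211 TPM in macrophages, and the male germ cell paralog Rpl10l at 0 in both. Rps3a2 was at 0.264 TPM in MEF and listed at 0 in BMDM, and Rps3a3 at 0.965 TPM in MEF and 0.892 TPM in BMDM.

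**Figure D4:**
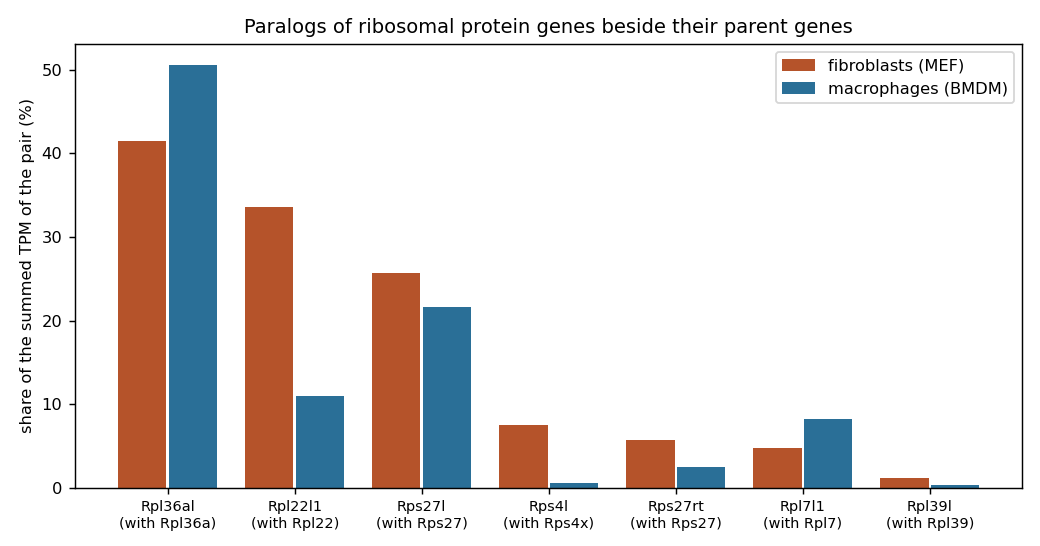
Bars give the TPM of a paralog as a percent of the TPM of the paralog and its parent together (vertical axis), fibroblasts left and macrophages right, for the 7 paralogs at 5 TPM or more. Rpl22l1 reaches 33.6% in fibroblasts and 11.0% in macrophages, whereas Rpl36al and Rpl7l1 hold the larger share in macrophages. Copies of the parents are not included.

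Ribosomal proteins that the naming rule does not take were looked at for the same pattern. Rpsa, encoding a small subunit protein also known as the laminin receptor, was at 2635 TPM in MEF and 1663 TPM in BMDM, and Rack1, the scaffold on the small subunit's head, at 1576 TPM in MEF and 1040 TPM in BMDM, with log2 ratios of 0.66 and 0.60. Fau, which fuses a ubiquitin-like protein to RPS30, had 389 TPM in MEF and 193 TPM in BMDM. Its copy Gm9843 was at 1343 TPM in MEF and 1595 TPM in BMDM, and the log2 ratio was 1.00 for Fau alone and −0.05 with it. Among the 92 genes, Rps19bp1, the partner protein, was at 50.7 TPM in MEF and 43.5 TPM in BMDM.

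Genes that work with the ribosome were set beside it. Over all 11191 genes at 5 TPM or more, 61.5% had a log2 ratio above 0. By the size rule, 14.3% of them were higher in fibroblasts and 8.77% in macrophages. Of 17 other genes with TOP mRNAs, chiefly elongation and initiation factors, 16 had a log2 ratio above 0 with a median of 0.46 and none passed the size rule. Of 80 ribosome biogenesis genes, which process rRNA and assemble subunits, 64 were above 0 with a median of 0.42 and none passed it. Of 7 chaperones that carry single ribosomal proteins, 6 were above 0, with a median of 0.41. Near the share over all genes, 47 of the 77 mitochondrial ribosomal protein genes (61.0%) were above 0. These 77 had a median of 0.06. Among them Mrps6, of the mitochondrial small subunit, was past the size rule at 95 TPM in MEF and 19.0 TPM in BMDM.

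Regulators and other partners gave mixed values. Of 20 genes of the mTOR and MYC network, 13 were above 0 with a median of 0.24, and only Mxd4, which encodes a MYC antagonist, passed the size rule, at 51.4 TPM in MEF and 10.8 TPM in BMDM. Myc itself was at 50.8 TPM in MEF and 48.8 TPM in BMDM. Of 12 genes of ribosome-bound factors, 11 were above 0 with a median of 0.58, and Eef2k, the kinase that inhibits elongation factor 2, passed the size rule at 44.8 TPM in MEF and 8.58 TPM in BMDM. Of 7 snoRNA host genes, 5 were above 0 with a median of 0.58, and none passed the size rule. Their log2 ratios ran from −0.35 to 1.19. Among them Rack1, Tpt1, Eif4a2, Nop56 and Ncl also belong to other lists described here. For 16 proliferation genes the median was 0.14, with 10 above 0, and none passed it: Mki67 was at 28.0 TPM in MEF and 42.5 TPM in BMDM. These lists were set beside a median of 0.26 over all 11191 genes, of which 61.5% stood above 0. The shares above 0 in the mTOR and MYC list and the proliferation list, 65% and 62.5%, were near that.

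**Figure D5:**
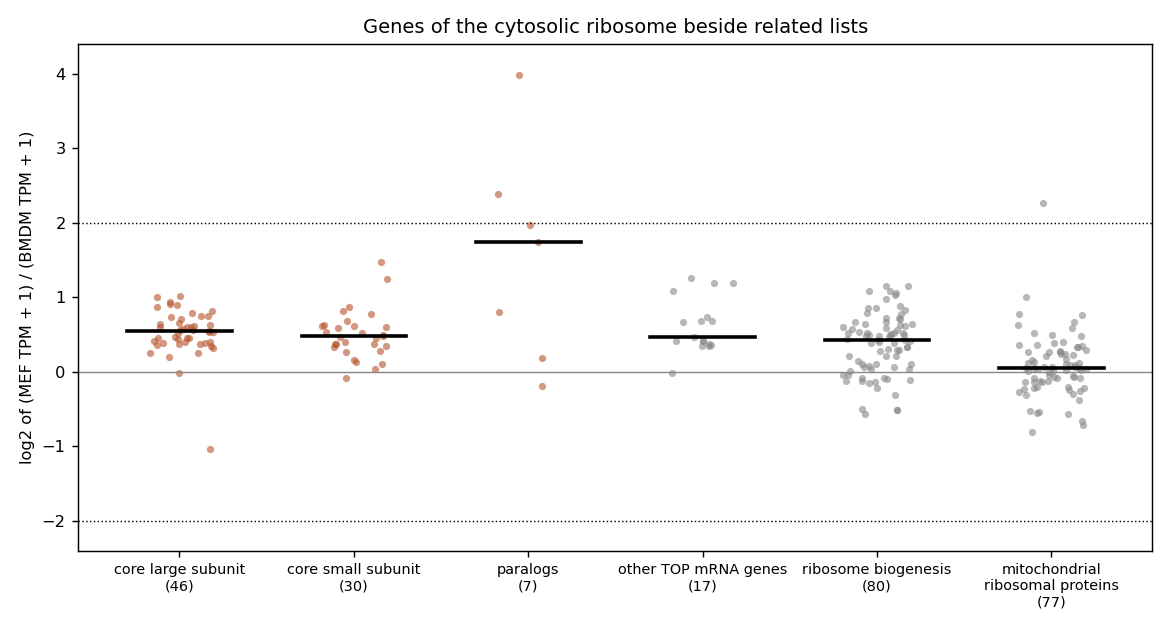
Each point is a gene at 5 TPM or more, by its log2 ratio of fibroblasts over macrophages (vertical axis, TPM plus 1), with the list and its number of genes on the horizontal axis. Thick bars are medians, which run from 1.74 for the paralogs and 0.55 for the large subunit to 0.06 for mitochondrial ribosomal proteins. The paralog median is the value of Rps27rt. Dotted lines mark the 4-fold size rule.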

How the data were processed

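The deposited table gave 1 value per gene and library in transcripts per 1000000 (TPM). The file headers name no unit, so TPM was read from the deposited values, which are non-negative and sum to 999545 in the fibroblast and 999609 in the macrophage column. The submitters' processing notes name kallisto 0.43.1 and, as the build, GRCm38, but not the transcript set, which is not given in the sources used here. kallisto divides reads that fit several transcripts by estimation, so rows of a gene and its near-identical copies are uncertain. Per the labels' protocols, libraries were stranded mRNA libraries read from both ends.

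Rows sharing a symbol were added. Ratios are log2 of TPM plus 1, and a call needs 4-fold and 5 TPM. Copies were found with BLAST 2.17.0, and tables made with Python 3.11.15, pandas 2.3.3 and numpy 2.4.6. Coding bases came from GENCODE M21 and promoter windows from RefSeq.

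The members and lists were chosen with earlier results of these data known. Values are given in full for the 5 highest and 5 lowest core genes by mean level, the 8 members with the highest and the 8 with the lowest ratio, all paralogs, members past the size rule, the stalk and 5S genes and ribosomal proteins outside the naming rule, of which 1 is not reported here. From other lists, up to 2 genes past the rule were named. Genes with abundant copies, the copies themselves, the list extremes, Myc, Mki67 and Fth1 were named after their values were seen. Rpl26l1 and Rps23rg1, also looked for as paralogs, were not analysed here. Alternatives varied the pseudocount, the minimum, the fold, the scaling, the use of rows and the treatment of copies.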

Additional observations from a re-analysis of the deposited data

How the results depend on the processing

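The 4-fold calls did not change with a pseudocount of 5, another minimum, another scaling or added copies. With a pseudocount of 0.1, Rpl39l was also called. At 2-fold, the members higher in fibroblasts numbered 8 in place of 2, and those higher in macrophages 1 in place of 0. The median log2 ratio of the members, 0.53, was 0.28 under median-of-ratios scaling and 0.40 with the TPM rescaled after dropping genes of the mitochondrial genome and each library's 50 highest. It was 0.52 with rows named as pseudogenes of a member added, and 0.49 with near-identical copies added or with no minimum. Copies were matched by sequence after the data were seen. The SD of the core ratios, 0.32, was 0.24 with either kind of copy added. The members' share in fibroblasts, 12.5%, was 10.6% after the rescaling, which dropped 13 members, 14.1% with named pseudogenes, 9.94% without the 5 highest members and 15.4% with near-identical copies. In macrophages the share of 8.66% was 8.39%, 9.87%, 6.92% and 10.8% under the same settings in that order. The cause of these moves was not tested. Of 1012 results for single members under 11 alternatives, 8 changed their call, and 0 of the called ratios changed sign. Among the core genes, none of them called, the ratios of Rpl12, Rpl35a, Rps16, Rps23, Rps25 and Rps27a turned below 0 under median-of-ratios scaling. Those of Rps16, Rps25 and Rps27a also did so after the rescaling. Changes of sign among uncalled members outside the core are not listed here. No paired analysis was possible because each group has 1 library. With 1 library each, no setting could leave out a replicate, and depth limits cannot be given for TPM.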
